A study of Mus musculus with 3 samples.

Results

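Non-cycling Sertoli cells were chosen by their measured transcripts from the single-cell transcriptomes of neonatal mouse testes. The values used were unique molecular identifiers (UMIs), each of which marks 1 captured transcript. A cell was a member when Amh, Sox9, Cldn11 and Inha summed to at least 3 UMIs. Its UMIs were also limited to at most 2 of Col1a1, Col1a2, Col3a1 and Dcn, at most 5 of Cyp11a1, Cyp17a1 and Hsd3b1, and at most 1 of Ddx4 and Dazl. It further had to hold 0 UMIs of the G2/M genes Ube2c, Cenpf, Plk1 and Cenpa, 0 of the S phase genes Rrm2, Tk1, Clspn and Tyms, and 0 of Fstl3, Gdf15, Cidea, Omp and Edn1. This selected 710 of 14422 cells (4.92%), of which 190 came from Cdk2-Y15S, 238 from Cdk2-HET and 282 from Cdk2-WT.

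The series concerns CDK2 and the germ cells of the male, which Sertoli cells, somatic cells of the testis cord, enclose. The labels give 3 genotypes with 1 library each: homozygotes for the YS allele of Cdk2 (Cdk2-Y15S), heterozygotes with 1 YS and 1 wild-type allele (Cdk2-HET), and homozygous wild type (Cdk2-WT). Y15S denotes serine in place of the tyrosine whose phosphorylation restrains CDK2. All were untreated males at postnatal day 3 (3.5 days in the dissection protocol) on a background that mixes B6(Cg)-Tyrc-2J/J with FVB/NJ, bred from heterozygous parents. The labels do not say how many animals each library holds.

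Sertoli cells direct testis formation through SOX9 and secrete anti-Müllerian hormone, inhibin, desert hedgehog and growth factors that support germ cells. In the neonatal mouse they still divide, and they leave the cell cycle for good before puberty, when they form the tight junctions of the blood-testis barrier. A cell counted here as non-cycling is a cell in which 8 cycle genes gave no UMI, which does not tell a cell that has left the cycle from one between phases or one read too shallowly.

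With 1 library per genotype there is no replicate, so no test and no p-value is given. Each genotype difference describes these libraries, and the 95% intervals after each value cover counting error alone. Levels are given in CPM, counts of a gene scaled to a common total, from UMIs summed over the member cells of a library (912267 in Cdk2-Y15S, 1151222 in Cdk2-HET and 1291053 in Cdk2-WT). Of the 14335 distinct barcodes, 87 (0.607%) occurred in more than 1 library, 7 members carried one of them, and 0 barcodes were members in more than 1 library.

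The share of non-cycling cells was similar in the 3 libraries. Of the cells that met the Sertoli, stromal, Leydig and germ conditions, called gated Sertoli cells here, 190 of 1564 were members in Cdk2-Y15S (12.1%, 10.6 to 13.9), 238 of 2138 in Cdk2-HET (11.1%, 9.83 to 12.5) and 282 of 2462 in Cdk2-WT (11.5%, 10.2 to 12.8; exact Clopper-Pearson intervals). The 3 intervals overlapped. Dropping the condition on Fstl3, Gdf15, Cidea, Omp and Edn1 gave 32.3% in Cdk2-Y15S, 28.3% in Cdk2-HET and 31.2% in Cdk2-WT. The rule was also read after thinning to 3000 UMIs per cell, which removes the depth gap between cells but leaves out cells with fewer. Of the gated cells that remained, members were 23.8% in Cdk2-Y15S, 19.8% in Cdk2-HET and 21.2% in Cdk2-WT. Gated Sertoli cells themselves made up 35.5% of the Cdk2-Y15S cells, 43.1% of the Cdk2-HET cells and 48.6% of the Cdk2-WT cells.

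The conditions removed unequal numbers of cells. Any of the 4 G2/M genes was found in 50.8% of the gated cells of Cdk2-Y15S, 53.8% of Cdk2-HET and 47.7% of Cdk2-WT. Any of the 4 S phase genes was found in 47.3% of Cdk2-Y15S, 51.5% of Cdk2-HET and 50.2% of Cdk2-WT gated cells. The Fstl3 condition was the most selective, since 67.3% of gated cells in Cdk2-Y15S, 65.3% in Cdk2-HET and 66.6% in Cdk2-WT held a UMI of its genes. Within it, Cidea was found in 23.7% of gated Cdk2-Y15S cells, 21.4% of Cdk2-HET and 11.5% of Cdk2-WT, while Gdf15 was found in 20.1% in Cdk2-Y15S, 28.0% in Cdk2-HET and 29.3% in Cdk2-WT. Many exclusions rested on a single molecule, since 443 cells met every other condition and held exactly 1 UMI of these 5 genes, 241 exactly 1 of the S phase genes and 151 exactly 1 of the G2/M genes.

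**Figure D1:**
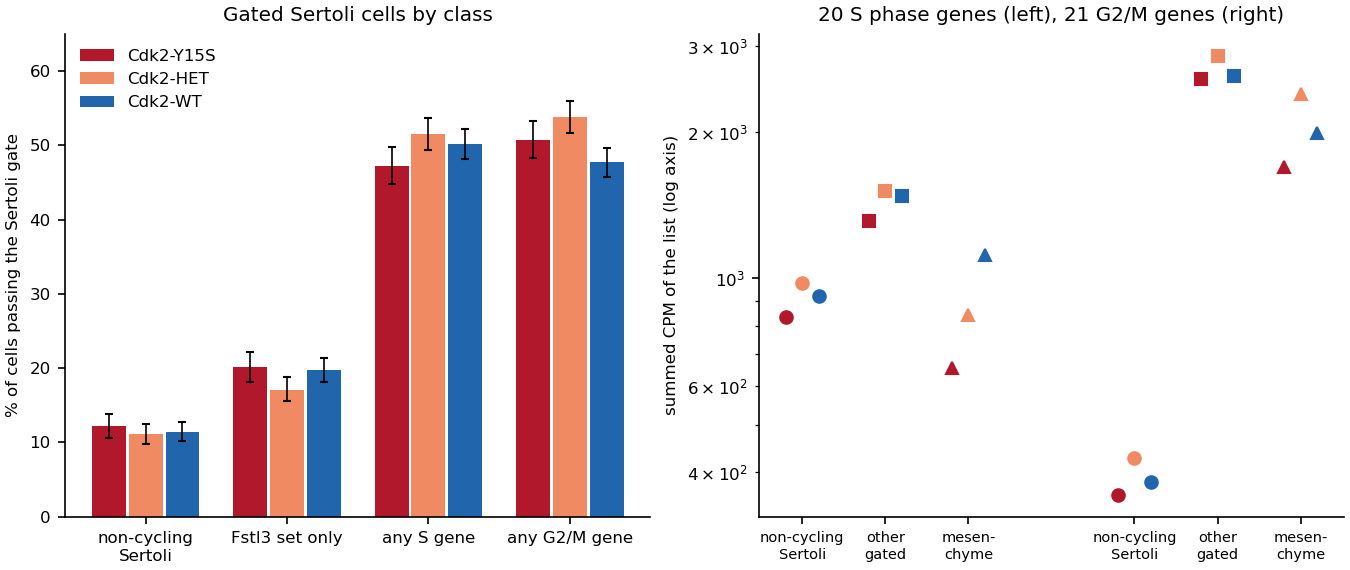
Left, percent of gated Sertoli cells (y axis) in each class by library, with exact 95% binomial intervals; a cell can hold both S and G2/M genes. Right, summed CPM on a log axis of cell cycle genes that the rule did not use, in non-cycling Sertoli cells, other gated Sertoli cells and mesenchyme. The 3 member shares lie between 11.1% and 12.1%, and of the 3 classes drawn on the right the members are lowest for the G2/M list in each library.

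At the edges of the rule, 32 members had exactly 3 UMIs of the Sertoli genes and 35 further cells had exactly 2. The edge was shallow on both sides, with median depths of 2436 and 2643 UMIs. At the stromal limit, 42 members had exactly 2 UMIs and 7 further cells exactly 3, and the 42 were spread as 23 in Cdk2-Y15S, 15 in Cdk2-HET and 4 in Cdk2-WT. The germ limit had 7 members with exactly 1 UMI and 0 cells with exactly 2, and no cell stood at 5 or 6 UMIs of the Leydig genes. Members were shallower than the other gated cells, with medians of 4897.5 against 6290 UMIs in Cdk2-Y15S, 5036 against 6374.5 in Cdk2-HET and 4239 against 6218.5 in Cdk2-WT. Their median mitochondrial share was 6.66% in Cdk2-Y15S, 5.82% in Cdk2-HET and 6.17% in Cdk2-WT. The other gated cells had 6.77% in Cdk2-Y15S, 5.95% in Cdk2-HET and 6.30% in Cdk2-WT.

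The Sertoli genes of the rule are values that chose the cells and are given as a description. Amh, which encodes the hormone that removes the Müllerian duct, had 463 CPM (419 to 509) in Cdk2-Y15S, 1081 (1021 to 1142) in Cdk2-HET and 966 (913 to 1021) in Cdk2-WT. Inha, the alpha subunit of inhibin, had 1870.1 CPM in Cdk2-Y15S, 2915 in Cdk2-HET and 2692 in Cdk2-WT. Both were lowest in Cdk2-Y15S members. Sox9, the factor that sets Sertoli fate, had 295 CPM in Cdk2-Y15S, 226 in Cdk2-HET and 251 in Cdk2-WT, and Cldn11, a tight junction claudin, had 98.7 CPM in Cdk2-Y15S, 57.3 in Cdk2-HET and 43.4 in Cdk2-WT, highest in Cdk2-Y15S. The median member held 11 UMIs of the 4 genes together in Cdk2-Y15S, 20 in Cdk2-HET and 17 in Cdk2-WT. The margin to the limit of 3 UMIs was thus narrowest in Cdk2-Y15S.

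Sertoli markers that the rule did not use matched the label. Mesenchyme, the 6139 cells with at least 10 UMIs of Col1a1, Col1a2, Col3a1 and Dcn and at most 2 UMIs of the 4 Sertoli genes, served as the cell type that should lack them. Wt1, a transcription factor needed to keep Sertoli identity, had 329.9 CPM in Cdk2-Y15S, 287 in Cdk2-HET and 309 in Cdk2-WT members and 8.24 CPM in Cdk2-Y15S, 6.47 in Cdk2-HET and 6.88 in Cdk2-WT mesenchyme. After thinning to 3000 UMIs, the share of members with a Wt1 UMI was 58.1% in Cdk2-Y15S, 58.8% in Cdk2-HET and 62.2% in Cdk2-WT, and the share of mesenchyme cells with one was 2.03% in Cdk2-Y15S, 2.21% in Cdk2-HET and 2.05% in Cdk2-WT. The thinning kept 155 members of Cdk2-Y15S, 170 of Cdk2-HET and 193 of Cdk2-WT, and left out 35, 68 and 89 shallower ones of the same libraries. Wt1 was thus found in most members and in few mesenchyme cells. Aard, a known marker of fetal Sertoli cells, had 5571 CPM in Cdk2-Y15S, 4248 in Cdk2-HET and 4351 in Cdk2-WT members against 181 CPM in Cdk2-Y15S, 160.4 in Cdk2-HET and 137 in Cdk2-WT mesenchyme. Rhox8, a homeobox gene of Sertoli cells, had 1532 CPM in Cdk2-Y15S, 1601 in Cdk2-HET and 1612 in Cdk2-WT, and Dmrt1, a factor that maintains male fate, had 139 CPM in Cdk2-Y15S, 135 in Cdk2-HET and 116 in Cdk2-WT. In mesenchyme Rhox8 stood at 12.9 CPM in Cdk2-Y15S, 18.9 in Cdk2-HET and 17.6 in Cdk2-WT, and Dmrt1 at 2.2 CPM in Cdk2-Y15S, 1.85 in Cdk2-HET and 1.44 in Cdk2-WT. Trf, the transferrin gene of mature Sertoli cells, gave 2 UMIs in Cdk2-Y15S, 1 in Cdk2-HET and 2 in Cdk2-WT members. Fshr, the receptor of follicle-stimulating hormone, had 27.4 CPM (17.7 to 40.5) in Cdk2-Y15S, 41.7 (30.7 to 55.3) in Cdk2-HET and 51.1 (39.5 to 65) in Cdk2-WT, and mesenchyme had at most 0.77.

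**Figure D2:**
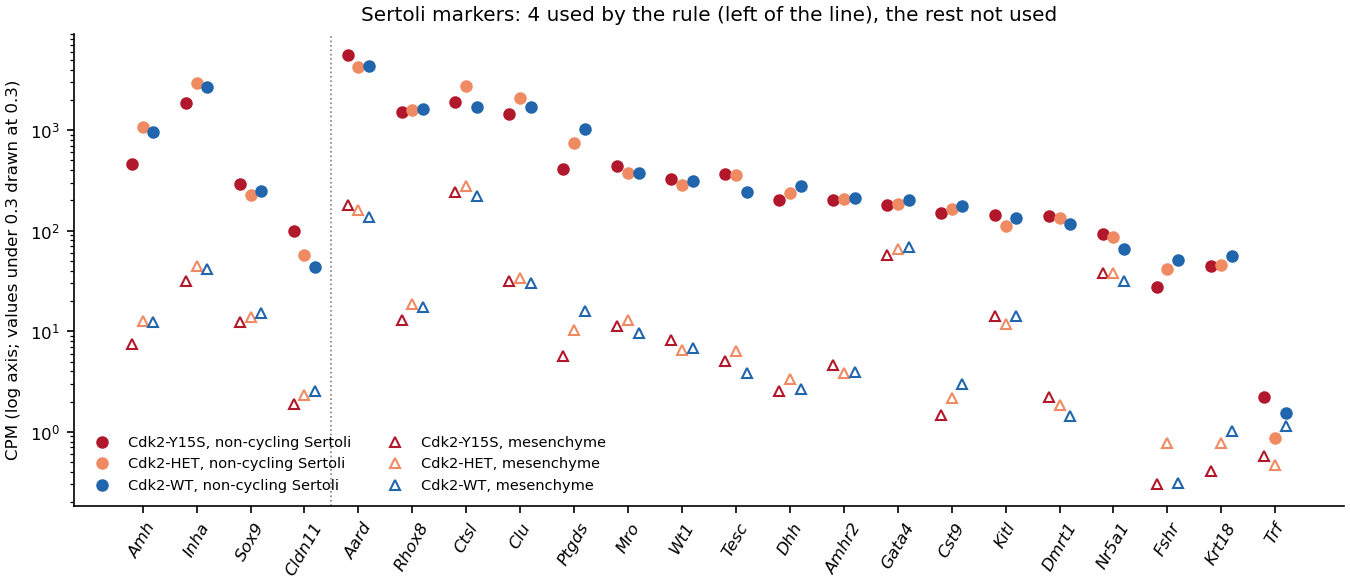
Level of each Sertoli marker in CPM on a log axis, for non-cycling Sertoli cells (filled circles) and mesenchyme (open triangles) of each library. For each of the 22 markers except Trf, every member value lies above every mesenchyme value. Amh, Sox9, Cldn11 and Inha were used to choose the cells of both classes. A gap in these genes was favoured by that choice and does not check the label.

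Summed cell cycle genes outside the rule were lower in members than in the other gated Sertoli cells. The 21 genes of G2 and M phase summed to 359.5 CPM in Cdk2-Y15S, 428 in Cdk2-HET and 383 in Cdk2-WT members, against 2566 CPM in Cdk2-Y15S, 2862 in Cdk2-HET and 2597 in Cdk2-WT other gated cells. Top2a, the topoisomerase of dividing cells, had 7.67 CPM in Cdk2-Y15S, 6.95 in Cdk2-HET and 6.97 in Cdk2-WT members and 254 CPM in Cdk2-Y15S, 208 in Cdk2-HET and 176 in Cdk2-WT other gated cells. Mki67, the proliferation antigen, gave 7 UMIs in all members together. The 20 S phase genes were less apart, with 831 CPM in Cdk2-Y15S, 976 in Cdk2-HET and 919 in Cdk2-WT members and 1314 CPM in Cdk2-Y15S, 1510.4 in Cdk2-HET and 1474 in Cdk2-WT other gated cells. Mesenchyme had S phase sums of 656 CPM in Cdk2-Y15S, 843 in Cdk2-HET and 1117 in Cdk2-WT. Members thus stood above mesenchyme in Cdk2-Y15S and Cdk2-HET and below it in Cdk2-WT. Mcm6, a subunit of the replicative helicase that is loaded before S phase, had 50.4 CPM in Cdk2-Y15S, 56.5 in Cdk2-HET and 44.1 in Cdk2-WT members and 78.7 CPM in Cdk2-Y15S, 80.1 in Cdk2-HET and 66.9 in Cdk2-WT other gated cells. Pcna, the sliding clamp of DNA polymerase, had 5.48 CPM (1.78 to 12.8) in Cdk2-Y15S, 17.4 (10.6 to 26.8) in Cdk2-HET and 13.9 (8.26 to 22) in Cdk2-WT members. It was lowest in Cdk2-Y15S, with overlapping intervals, as it was in mesenchyme at 9.06 CPM in Cdk2-Y15S, 23.6 in Cdk2-HET and 33 in Cdk2-WT. These low sums were not particular to the members. Gated cells left out by the Fstl3 condition alone had G2/M sums of 350.2 CPM in Cdk2-Y15S, 423 in Cdk2-HET and 371 in Cdk2-WT, and S phase sums of 821 CPM in Cdk2-Y15S, 962 in Cdk2-HET and 897 in Cdk2-WT, slightly below the members in each library. Since the rule sorted cells by cycle genes and favoured shallow cells, these gaps are a description.

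Regulators of the cycle were thinly covered. Of 22 CDK inhibitors, cyclins and pocket proteins, 3 reached 200 UMIs over the members of the 3 libraries. Ccnd2, the D-type cyclin of Sertoli cells, had 757 CPM in Cdk2-Y15S, 806 in Cdk2-HET and 677 in Cdk2-WT, and its partner kinase Cdk4 had 426 CPM in Cdk2-Y15S, 437 in Cdk2-HET and 433 in Cdk2-WT. Ccnd3 had 65.8 CPM in Cdk2-Y15S, 77.3 in Cdk2-HET and 64.3 in Cdk2-WT. Cdk2 itself (ENSMUSG00000025358, chromosome 10, 128697939 to 128705031, minus strand) had 57 CPM (42.6 to 74.7) in Cdk2-Y15S, 52.1 (39.8 to 67.1) in Cdk2-HET and 44.9 (34.1 to 58.1) in Cdk2-WT, with overlapping intervals. A substitution in the protein need not alter the transcript, so these values do not check the genotype labels. Cdkn1b, the CDK inhibitor that accumulates in maturing Sertoli cells, had 8 UMIs in Cdk2-Y15S, 14 in Cdk2-HET and 25 in Cdk2-WT (8.77 CPM (3.79 to 17.3) in Cdk2-Y15S, 12.2 (6.65 to 20.4) in Cdk2-HET and 19.4 (12.5 to 28.6) in Cdk2-WT). The Cdk2-Y15S and Cdk2-WT intervals of Cdkn1b overlapped. Wee1, the kinase that phosphorylates the tyrosine replaced in Y15S, had 37.3 CPM in Cdk2-Y15S, 22.6 in Cdk2-HET and 33.3 in Cdk2-WT.

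Other cell types were scarce, with 5 exceptions. Among 8 lists of markers, the stromal list of 10 genes summed to 73.4 CPM in Cdk2-Y15S, 66.9 in Cdk2-HET and 52.7 in Cdk2-WT members, against 3073 CPM in Cdk2-Y15S, 2783 in Cdk2-HET and 2458 in Cdk2-WT mesenchyme, and no gene of it was at 0. The peritubular myoid list summed to 94.3 CPM in Cdk2-Y15S, 67.8 in Cdk2-HET and 76.7 in Cdk2-WT with 2 of 8 genes at 0, and the fetal Leydig list to 6.58 CPM in Cdk2-Y15S, 10.4 in Cdk2-HET and 17 in Cdk2-WT with 2 of 6 at 0. The germ list gave 25.2 CPM in Cdk2-Y15S, 13 in Cdk2-HET and 18.6 in Cdk2-WT with 2 of 8 at 0, and the rete and epididymal list 12.1 CPM in Cdk2-Y15S, 9.56 in Cdk2-HET and 10.8 in Cdk2-WT with 3 of 7 at 0. A single Cdk2-Y15S member held 355 UMIs of the erythroid list among its 2533, and this list summed to 408 CPM in Cdk2-Y15S, 21.7 in Cdk2-HET and 13.9 in Cdk2-WT. Macrophage genes gave 203 of 6825 UMIs in 1 Cdk2-HET member and 130 of 7357 in 1 Cdk2-WT member, and that list summed to 6.58 CPM in Cdk2-Y15S, 187 in Cdk2-HET and 103 in Cdk2-WT. Endothelial genes gave 18 of 3181 UMIs in 1 Cdk2-HET member and 26 of 8704 in 1 Cdk2-WT member, for 26.3 CPM in Cdk2-Y15S, 40.8 in Cdk2-HET and 41.1 in Cdk2-WT. No other member had more than 3 UMIs of any of these 3 lists.

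These 5 cells carry several genes. Hba-a1, an alpha globin, had 219 CPM in Cdk2-Y15S, 1.74 in Cdk2-HET and 3.1 in Cdk2-WT, and 96.6% of its UMIs came from 1 cell. Apoe, an apolipoprotein abundant in macrophages, had 6.58 CPM in Cdk2-Y15S, 450.0 in Cdk2-HET and 122 in Cdk2-WT, and 73.0% of its UMIs came from 1 cell. Without the 5 cells Apoe had 6.60 CPM in Cdk2-Y15S, 18.4 in Cdk2-HET and 7.84 in Cdk2-WT. Tmsb4x, a binder of actin monomers, had 458 CPM in Cdk2-Y15S, 507 in Cdk2-HET and 435 in Cdk2-WT with all members. Without the 5 cells it had 458 CPM in Cdk2-Y15S, 232 in Cdk2-HET and 163 in Cdk2-WT, a log2 ratio of 1.49 for Cdk2-Y15S over Cdk2-WT where all members gave 0.077. The ratio also moved with the rule, whose other forms do not admit all of these cells. It was 1.16 with at least 6 Sertoli UMIs, 1.47 with the rule read after thinning and -0.36 with a stromal limit of 0 UMIs. The macrophage members held 3 Sertoli UMIs in Cdk2-HET and 4 in Cdk2-WT, so the limit of 6 left them out.

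Over the members, 2589 genes outside the rule had at least 200 UMIs. A gene is called higher or lower here when its ratio between 2 libraries reached 1.5-fold and its 95% counting interval excluded 0 on the log2 scale. Between Cdk2-Y15S and Cdk2-WT, 76 genes (2.94%) were higher and 73 (2.82%) lower in Cdk2-Y15S. Between Cdk2-HET and Cdk2-WT, 36 (1.39%) were higher and 36 (1.39%) lower in Cdk2-HET. With median-of-ratios scaling the Cdk2-HET counts were 22 and 47, and with mitochondrial and ribosomal genes left out of the total they were 22 and 50. Between Cdk2-Y15S and Cdk2-HET, 73 (2.82%) were higher and 80 (3.09%) lower in Cdk2-Y15S. The median log2 ratio over the 2589 genes was 0.017 for Cdk2-Y15S over Cdk2-WT, 0.046 in Cdk2-HET over Cdk2-WT, with -0.029 between Cdk2-Y15S and Cdk2-HET. The first 2 pairs share the Cdk2-WT members, so values that are alike in both do not support each other.

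Secreted products of the members included called genes in both carriers. Of 27 hormones and niche ligands, 12 reached 200 UMIs, with a median log2 ratio over Cdk2-WT of -0.061 in Cdk2-Y15S (1 higher, 1 lower) and 0.090 in Cdk2-HET (1 higher, 0 lower). Over all genes, 2.94% were higher and 2.82% lower in Cdk2-Y15S, and 1.39% were higher and 1.39% lower in Cdk2-HET. Ptgds (ENSMUSG00000015090, chromosome 2, 25466709 to 25470046, minus strand), the prostaglandin D synthase whose product supports Sox9 in the fetal testis, had 411 CPM (371 to 455) in Cdk2-Y15S, 749.6 (700.5 to 801) in Cdk2-HET and 1019 (965 to 1076) in Cdk2-WT. Its levels stood in the order of the number of YS alleles and the 3 intervals did not overlap. The log2 ratio was -1.31 (-1.48 to -1.14) in Cdk2-Y15S and -0.44 (-0.57 to -0.32) in Cdk2-HET against Cdk2-WT. The other gated Sertoli cells had 379 CPM in Cdk2-Y15S, 713 in Cdk2-HET and 984 in Cdk2-WT, in the same order. Mesenchyme had 5.63 CPM in Cdk2-Y15S, 10.4 in Cdk2-HET and 15.9 in Cdk2-WT, far below both Sertoli classes in each library. The source of these few mesenchyme UMIs was not tested. At 3000 UMIs per cell, 43.9% of Cdk2-Y15S members had no Ptgds UMI, against 17.1% of Cdk2-HET and 12.4% of Cdk2-WT members.

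Mdk, the heparin-binding growth factor midkine, had 464 CPM (421 to 510.0) in Cdk2-Y15S, 404 (368 to 442) in Cdk2-HET and 295 (266 to 326) in Cdk2-WT, highest in Cdk2-Y15S and lowest in Cdk2-WT. Its ratio for Cdk2-Y15S over Cdk2-WT was 0.65 and fell short of 1.5-fold under 4 of 12 alternatives (log2 ratio nearest to 0, 0.47). The alternatives changed the conditions of the rule, the free RNA, the scaling, the averaging or the cells left out. Mesenchyme was lowest in Cdk2-WT too, with 1454 CPM in Cdk2-Y15S, 1522 in Cdk2-HET and 1013 in Cdk2-WT. Ctsl, the lysosomal protease cathepsin L, had 1894 CPM (1806 to 1986) in Cdk2-Y15S, 2736 (2642 to 2833) in Cdk2-HET and 1690.1 (1619.9 to 1763) in Cdk2-WT and was highest in Cdk2-HET (log2 ratio over Cdk2-WT 0.69 (0.62 to 0.77)). Clu, the secreted chaperone clusterin, had 1448 CPM in Cdk2-Y15S, 2093 in Cdk2-HET and 1702 in Cdk2-WT, also highest in Cdk2-HET, but below 1.5-fold. The beta defensin Defb19 had 2248 CPM in Cdk2-Y15S, 2247 in Cdk2-HET and 1665 in Cdk2-WT. Its neighbour Defb36 (ENSMUSG00000044863, chromosome 2, 152604327 to 152612729, plus strand), which is in no list, had 298 CPM (264 to 336) in Cdk2-Y15S, 170.3 (147 to 196) in Cdk2-HET and 134 (115 to 156) in Cdk2-WT and was called higher in Cdk2-Y15S (log2 ratio over Cdk2-WT 1.15 (0.87 to 1.44)). Dhh, the desert hedgehog ligand that signals to Leydig and peritubular cells, had 204 CPM in Cdk2-Y15S, 235 in Cdk2-HET and 280.4 in Cdk2-WT, and Kitl, the stem cell factor read by germ cells, had 144 CPM in Cdk2-Y15S, 110.3 in Cdk2-HET and 135 in Cdk2-WT. Wnt6, a secreted Wnt ligand, had 574 CPM in Cdk2-Y15S, 620.2 in Cdk2-HET and 598 in Cdk2-WT. Gdnf, which maintains spermatogonial stem cells, had 39.5 CPM (27.6 to 54.6) in Cdk2-Y15S, 42.6 (31.5 to 56.3) in Cdk2-HET and 32.5 (23.4 to 44) in Cdk2-WT, with overlapping intervals.

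**Figure D3:**
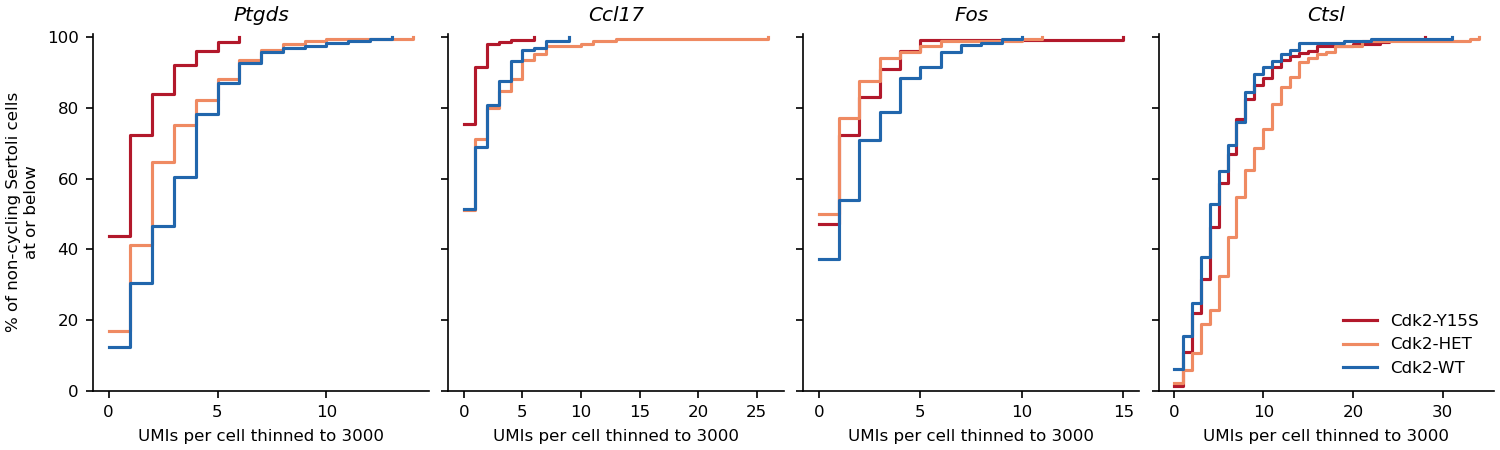
Cumulative percent of non-cycling Sertoli cells (y axis) with up to a given number of UMIs of Ptgds, Ccl17, Fos and Ctsl, after thinning each cell to 3000 UMIs (155 cells of Cdk2-Y15S, 170 of Cdk2-HET and 193 of Cdk2-WT). A curve further left or higher means fewer UMIs per cell; for Ptgds, 43.9% of Cdk2-Y15S cells start at 0.

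Ccl17 and AA467197, which are in no list, were also lowest in Cdk2-Y15S. Ccl17 (ENSMUSG00000031780, chromosome 8, 94810453 to 94812036, plus strand), a chemokine, had 116 CPM (95.1 to 141) in Cdk2-Y15S, 463 (425 to 504) in Cdk2-HET and 369 (337 to 404) in Cdk2-WT, lowest in Cdk2-Y15S and highest in Cdk2-HET, with a log2 ratio of -1.66 (-1.99 to -1.36) for Cdk2-Y15S over Cdk2-WT. Against Cdk2-WT, Cdk2-HET was slightly lower when the rule was read after thinning (log2 ratio -0.069) or the Fstl3 condition was dropped (-0.12). No Ccl17 UMI was found in 75.5% of thinned Cdk2-Y15S members, against 51.2% in Cdk2-HET and 51.3% in Cdk2-WT, and the upper tail was long, with up to 26 UMIs in 1 Cdk2-HET cell. In the other gated cells Ccl17 had 93.5 CPM in Cdk2-Y15S, 227 in Cdk2-HET and 306 in Cdk2-WT. AA467197 (ENSMUSG00000033213, chromosome 2, 122636986 to 122641191, plus strand) had 8 UMIs in Cdk2-Y15S, 109 in Cdk2-HET and 151 in Cdk2-WT members, or 8.77 CPM (3.79 to 17.3) in Cdk2-Y15S, 94.7 (77.7 to 114) in Cdk2-HET and 117 (99 to 137) in Cdk2-WT. The Cdk2-Y15S value lay far below the others in the other gated cells too, at 7.56 CPM in Cdk2-Y15S, 81.9 in Cdk2-HET and 92.5 in Cdk2-WT.

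Transcription factors of Sertoli identity did not pass the call. Of 19 on the list, 7 reached 200 UMIs, 0 were higher and 0 lower in either pair, and the median log2 ratios over Cdk2-WT were -0.073 in Cdk2-Y15S and -0.099 in Cdk2-HET. The shares of all genes called in either direction were 5.76% in Cdk2-Y15S and 2.78% in Cdk2-HET. With such shares, 7 genes can hold no call without standing out. Gata4, which is needed for gonad formation, had 179 CPM in Cdk2-Y15S, 186 in Cdk2-HET and 203 in Cdk2-WT, and Nr5a1, the steroidogenic factor that acts with SOX9 on Amh, had 93.2 CPM in Cdk2-Y15S, 86 in Cdk2-HET and 65.1 in Cdk2-WT. The largest ratio among the 7 for Cdk2-Y15S over Cdk2-WT was that of Nr5a1, 0.52 (0.066 to 0.97), and the lowest that of Gata6, a relative of Gata4, -0.34 (-0.74 to 0.042).

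Receptors gave 4 of 20 genes with 200 UMIs, too few to set a share against the 5.76% (Cdk2-Y15S) and 2.78% (Cdk2-HET) called over all genes. Notch2 was called in each pair, with 126 CPM (104 to 151) in Cdk2-Y15S, 44.3 (33 to 58.2) in Cdk2-HET and 75.1 (60.9 to 91.7) in Cdk2-WT. It was highest in Cdk2-Y15S and lowest in Cdk2-HET, with log2 ratios over Cdk2-WT of 0.75 (0.34 to 1.15) and -0.76 (-1.28 to -0.26). Notch2 fell short of 1.5-fold in Cdk2-Y15S under 2 of 12 alternatives (log2 ratio nearest to 0, 0.41) and in Cdk2-HET under 2 of 12 alternatives (log2 ratio nearest to 0, -0.39). In the other gated cells Notch2 had 78 CPM in Cdk2-Y15S, 45.7 in Cdk2-HET and 53.1 in Cdk2-WT. Amhr2, the receptor of anti-Müllerian hormone, had 202 CPM in Cdk2-Y15S, 208 in Cdk2-HET and 214 in Cdk2-WT, Thra, a thyroid hormone receptor, had 464 CPM in Cdk2-Y15S, 439.5 in Cdk2-HET and 454 in Cdk2-WT, and Igf1r had 59.2 CPM in Cdk2-Y15S, 62.5 in Cdk2-HET and 57.3 in Cdk2-WT. These 3 receptors were not called in any pair.

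Junction and adhesion genes lay mostly above 0 for Cdk2-Y15S over Cdk2-WT, with 6 of 8 genes positive and a median of 0.40, against 0.017 over all genes. For Cdk2-HET over Cdk2-WT, 7 of 8 were positive with a median of 0.16. Over all 2589 genes the Cdk2-HET median was 0.046, and 1521 genes were above 0. In Cdk2-Y15S, 1361 of the 2589 genes were above 0. Whether the 8 genes differ from all genes in this was not tested. Of the 8 genes, 1 was called higher in Cdk2-Y15S than in Cdk2-WT, beside 2.94% over all genes. That gene was Itga6, the laminin-binding integrin alpha 6, with 91 CPM (72.5 to 113) in Cdk2-Y15S, 59.9 (46.6 to 75.9) in Cdk2-HET and 56.5 (44.3 to 71.1) in Cdk2-WT. Vim, the intermediate filament vimentin, had 1202 CPM in Cdk2-Y15S, 962 in Cdk2-HET and 878 in Cdk2-WT members and 3368 CPM in Cdk2-Y15S, 2618 in Cdk2-HET and 2548 in Cdk2-WT mesenchyme. Espn, an actin bundler of the ectoplasmic specialization, had 167 CPM in Cdk2-Y15S, 146 in Cdk2-HET and 125 in Cdk2-WT, and Ctnnb1, beta-catenin, had 252 CPM in Cdk2-Y15S, 178 in Cdk2-HET and 181 in Cdk2-WT. Vcl, the focal adhesion protein vinculin, is in no list and was among the highest ratios, with 96.5 CPM (77.4 to 119) in Cdk2-Y15S, 60.8 (47.4 to 76.8) in Cdk2-HET and 41.1 (30.8 to 53.7) in Cdk2-WT and a log2 ratio of 1.23 (0.72 to 1.75) for Cdk2-Y15S over Cdk2-WT. Gja1, the gap junction connexin 43, had 519.6 CPM in Cdk2-Y15S, 514 in Cdk2-HET and 510.4 in Cdk2-WT. Cldn3 was at 0 UMIs in all members. Stromal UMIs were also highest in Cdk2-Y15S members, with Col1a1 at 26.3 CPM in Cdk2-Y15S, 16.5 in Cdk2-HET and 7.75 in Cdk2-WT. With members limited to cells without stromal UMIs, the log2 ratio over Cdk2-WT was 1.12 for Vcl, 0.63 for Itga6 and 0.37 for Vim.

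In the basal lamina list, 4 of 14 genes reached 200 UMIs. Against Cdk2-WT, 5.76% of all genes were called in Cdk2-Y15S and 2.78% in Cdk2-HET. Col4a1, a collagen IV chain, was higher in Cdk2-HET than in Cdk2-WT, with 65.8 CPM (50.2 to 84.7) in Cdk2-Y15S, 89.5 (73 to 109) in Cdk2-HET and 58.9 (46.4 to 73.7) in Cdk2-WT, and its levels in mesenchyme were 267 CPM in Cdk2-Y15S, 273 in Cdk2-HET and 176 in Cdk2-WT. The Col4a1 ratio fell short of 1.5-fold under 7 of 12 alternatives (log2 ratio nearest to 0, 0.53). Sparc, a secreted matrix-binding protein, had 1657 CPM in Cdk2-Y15S, 1839 in Cdk2-HET and 1468 in Cdk2-WT. Retinoid handling was read from 2 of 18 genes, neither called. Aldh1a1, a retinaldehyde dehydrogenase, had 1015 CPM in Cdk2-Y15S, 1211 in Cdk2-HET and 1115 in Cdk2-WT, and Rara, a retinoic acid receptor, had 86.6 CPM in Cdk2-Y15S, 101 in Cdk2-HET and 119 in Cdk2-WT.

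Hmgcs1, the synthase at the entry of the cholesterol pathway, was called higher in both carriers, with 112 CPM (91.2 to 136) in Cdk2-Y15S, 95.6 (78.5 to 115) in Cdk2-HET and 51.9 (40.2 to 65.9) in Cdk2-WT. For Cdk2-HET it fell short of 1.5-fold under 1 of 12 alternatives (log2 ratio nearest to 0, 0.57). In the other gated cells Hmgcs1 had 103 CPM in Cdk2-Y15S, 79.3 in Cdk2-HET and 51.2 in Cdk2-WT, whereas mesenchyme had 57.2 CPM in Cdk2-Y15S, 61 in Cdk2-HET and 63.9 in Cdk2-WT. Hsd17b3, which makes testosterone from androstenedione, had 339.8 CPM in Cdk2-Y15S, 436 in Cdk2-HET and 509 in Cdk2-WT. Hsd17b1, which reduces estrone, had 298 CPM in Cdk2-Y15S, 446 in Cdk2-HET and 428 in Cdk2-WT. Both were lowest in Cdk2-Y15S and neither reached 1.5-fold against Cdk2-WT. Of the 18 genes, 6 reached 200 UMIs, with 1 higher and 1 lower for Cdk2-Y15S over Cdk2-WT and 2 higher and 0 lower for Cdk2-HET, where Apoe is 1 of these in each pair. The shares over all genes were 2.94% higher and 2.82% lower for Cdk2-Y15S, and 1.39% higher and 1.39% lower for Cdk2-HET. Glycolysis gave 9 of 20 genes and 0 calls in either pair, with medians of -0.091 and 0.054. Ldha, the lactate dehydrogenase subunit, had 210.5 CPM in Cdk2-Y15S, 244 in Cdk2-HET and 280.4 in Cdk2-WT, and Aldoa had 1067 CPM in Cdk2-Y15S, 1117 in Cdk2-HET and 1082 in Cdk2-WT.

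Mitochondrially encoded genes (11 of 13 with 200 UMIs) were not called in either pair, with medians of 0.089 and -0.10. Of all genes, 5.76% were called in Cdk2-Y15S and 2.78% in Cdk2-HET, so short lists without a call do not stand out. The p53 and amino acid stress list gave 4 of 20 genes and no call, with Phgdh, the first enzyme of serine synthesis, at 210.5 CPM in Cdk2-Y15S, 162 in Cdk2-HET and 167 in Cdk2-WT. From the imprinted list Gnas alone reached 200 UMIs, at 1018 CPM in Cdk2-Y15S, 1096 in Cdk2-HET and 911 in Cdk2-WT. H19 and Igf2, which are abundant in mesenchyme, had 12.1 CPM in Cdk2-Y15S, 16.5 in Cdk2-HET and 14.7 in Cdk2-WT, and 2.19 CPM in Cdk2-Y15S, 2.61 in Cdk2-HET and 0.775 in Cdk2-WT.

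**Figure D4:**
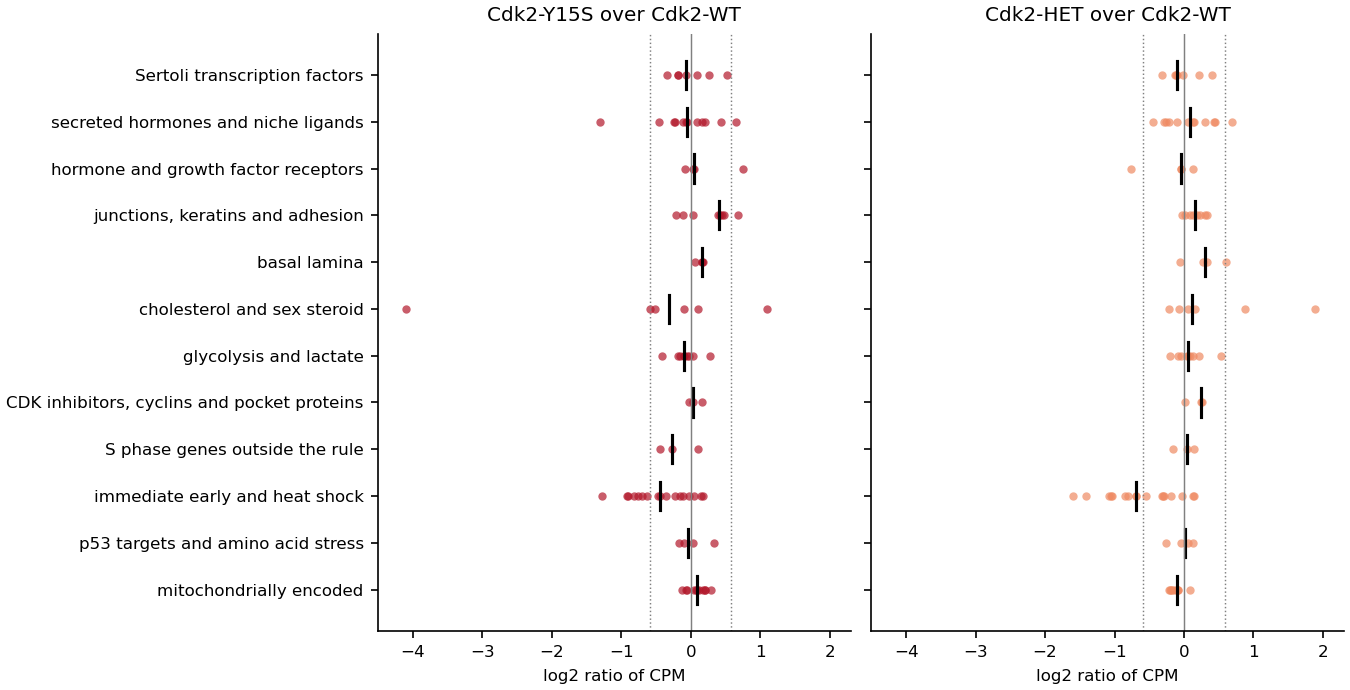
Log2 ratio of CPM for each list member with at least 200 UMIs (dots) and the list median (black bars), for Cdk2-Y15S over Cdk2-WT (left) and Cdk2-HET over Cdk2-WT (right), with dotted lines at 1.5-fold. Lists with at least 3 such genes are drawn; the immediate early and heat shock list has the lowest medians, -0.44 and -0.69, and the outlying dot of the cholesterol list is Apoe.

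Immediate early genes were the group with the most calls. They are transcribed within minutes of a stimulus without new protein synthesis, and enzymatic dissociation of tissue is a known stimulus. Of the 23 immediate early and heat shock genes, 17 reached 200 UMIs. For Cdk2-Y15S over Cdk2-WT, 7 were lower and 0 higher, with a median of -0.44 beside 0.017 over all genes, of which 2.82% were lower. For Cdk2-HET over Cdk2-WT, 9 were lower and 0 higher, with a median of -0.69 beside 0.046 over all genes, of which 1.39% were lower. Over the alternatives of processing the median ranged from -0.47 to -0.32 in Cdk2-Y15S and from -0.74 to -0.46 in Cdk2-HET. Between the carriers, 3 genes were higher in Cdk2-Y15S than in Cdk2-HET and 0 lower.

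Fos, a subunit of the AP-1 transcription factor, had 373 CPM (334 to 414) in Cdk2-Y15S, 311 (279.6 to 345) in Cdk2-HET and 658 (615 to 704) in Cdk2-WT, about level in the carriers and highest in Cdk2-WT. Junb, a partner of FOS in AP-1, had 413 CPM (373 to 457) in Cdk2-Y15S, 252 (224 to 283) in Cdk2-HET and 672 (628 to 719) in Cdk2-WT. The 3 Junb intervals did not overlap and Cdk2-HET was lowest. Btg2, an antiproliferative gene induced by growth factors and p53, followed that order with 169 CPM (143 to 198) in Cdk2-Y15S, 93.8 (77 to 113) in Cdk2-HET and 286 (257 to 317) in Cdk2-WT. Nr4a1, an orphan nuclear receptor, had 243 CPM (212 to 278) in Cdk2-Y15S, 261 (233 to 293) in Cdk2-HET and 456 (420.1 to 495) in Cdk2-WT. Klf4, a zinc finger factor known in Sertoli cells, had 88.8 CPM (70.5 to 110.4) in Cdk2-Y15S, 119.9 (101 to 142) in Cdk2-HET and 215 (191 to 242) in Cdk2-WT. Dusp1, a phosphatase that ends MAP kinase signals, had 52.6 CPM in Cdk2-Y15S, 48.6 in Cdk2-HET and 99.9 in Cdk2-WT, and Fosb, a relative of Fos, had 94.3 CPM in Cdk2-Y15S, 70.4 in Cdk2-HET and 146 in Cdk2-WT. Those 7 genes were lower than Cdk2-WT in both carriers. For Cdk2-Y15S, Fosb fell short of 1.5-fold under 2 of 12 alternatives (log2 ratio nearest to 0, -0.36) and Junb under 1 of 12 alternatives (log2 ratio nearest to 0, -0.48). Egr1 and Ier3 were called lower in Cdk2-HET and not in Cdk2-Y15S, with 581 CPM in Cdk2-Y15S, 399 in Cdk2-HET and 644 in Cdk2-WT for Egr1 and 74.5 CPM in Cdk2-Y15S, 49.5 in Cdk2-HET and 80.6 in Cdk2-WT for Ier3. Egr1 fell short of 1.5-fold in Cdk2-HET under 2 of 12 alternatives (log2 ratio nearest to 0, -0.49) and Ier3 under 4 of 12 alternatives (log2 ratio nearest to 0, -0.30). Jun was not called, at 221 CPM in Cdk2-Y15S, 175 in Cdk2-HET and 201 in Cdk2-WT, nor was the chaperone Hspa8, at 2415 CPM in Cdk2-Y15S, 2570.3 in Cdk2-HET and 2331 in Cdk2-WT.

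The full order of the libraries for Fos, Junb and Btg2 was not that of mesenchyme. For Fos and Btg2, Cdk2-WT was highest there too. Fos had 2420.5 CPM in Cdk2-Y15S, 2603 in Cdk2-HET and 2836 in Cdk2-WT mesenchyme, where its level was above that of members in each library. Junb had 2356 CPM in Cdk2-Y15S, 2274 in Cdk2-HET and 2263 in Cdk2-WT there, and Btg2 1001 CPM in Cdk2-Y15S, 1015 in Cdk2-HET and 1174 in Cdk2-WT. Over the same 17 genes the mesenchyme medians were -0.067 in Cdk2-Y15S and 0.0066 in Cdk2-HET against Cdk2-WT, with 0 genes higher and 0 lower in either pair. The other gated Sertoli cells had a median of -0.41 with 5 genes lower in Cdk2-Y15S, and of -0.51 with 8 genes lower in Cdk2-HET, and 0 genes higher in either. A test of the difference between cell classes needs replicate libraries, so none was made. With 1 library each on a mixed strain background, handling, strain alleles and the Cdk2 genotype cannot be told apart.

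**Figure D5:**
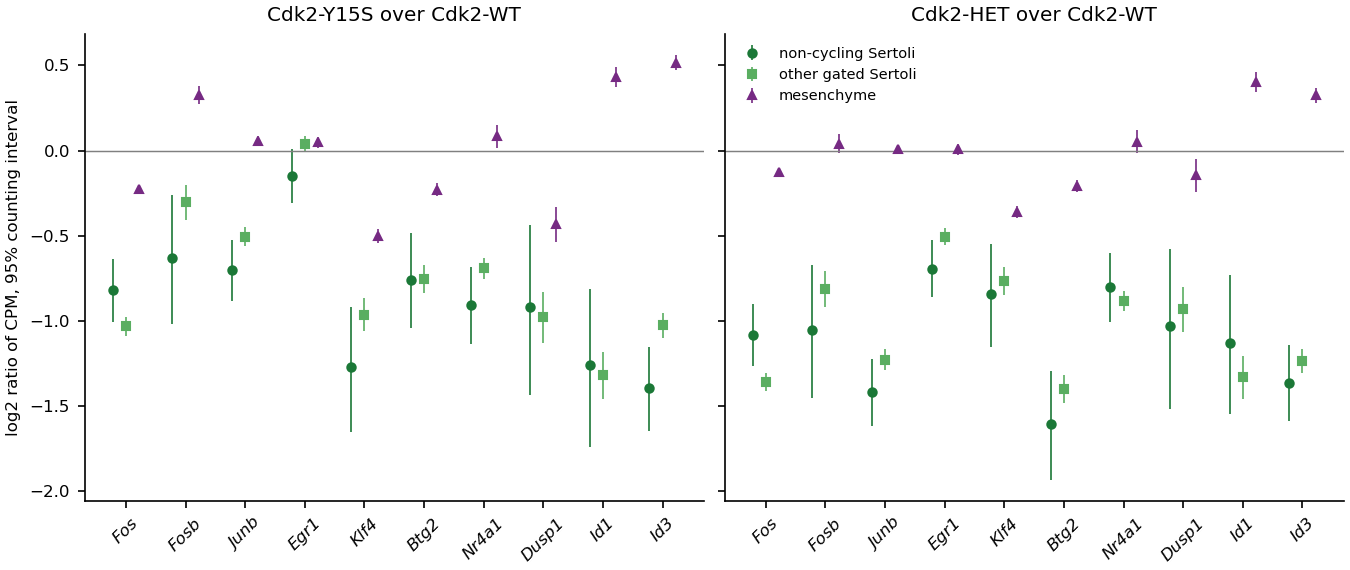
Log2 ratio of CPM with 95% counting intervals for 8 immediate early genes and Id1 and Id3, in non-cycling Sertoli cells, other gated Sertoli cells and mesenchyme, for Cdk2-Y15S over Cdk2-WT (left) and Cdk2-HET over Cdk2-WT (right). For Id1 and Id3 both Sertoli classes lie below 0 and mesenchyme above 0 in each panel. The 8 genes were each called lower in members of a carrier, and Id1 and Id3 had among the lowest member ratios. This choice favours member ratios below 0, and list genes that were not called, such as Jun, are not drawn.

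Upstream sequences of these genes are shown because these 7 genes were lower in both carriers and Fos and Nr4a1 are textbook targets of CREB, a factor that binds the cyclic AMP response element. The motif searched was its core TGACG on either strand (read as CGTCA on the minus strand), and the full palindrome TGACGTCA, in which a core on each strand overlaps. In the 200 bases before the RefSeq start, TGACG was found on either strand in 6 of the 7 genes and TGACGTCA in 2 (Btg2 and Dusp1), while Klf4 had neither. Of the same window in 27025 genes, 15.8% held the core and 1.55% the palindrome. A match is a description of the letters and not evidence of binding. Fos and Nr4a1 were known targets when the motif was chosen, and immediate early genes that were not lower were not looked at apart. The shares therefore do not tie the motif to the lower ratios. The windows of Fos (chr12:85473690-85473889 on the plus strand), Junb (chr8:84978749-84978948 on the minus strand), Btg2 (chr1:134079156-134079355 on the minus strand) and Nr4a1 (chr15:101266646-101266845 on the plus strand) overlap no exon of GENCODE M21, that of Nr4a1 lying inside a longer form of the gene. They are printed 5′ to 3′ from RefSeq on GRCm38.p6, with cores in capitals.
Fos: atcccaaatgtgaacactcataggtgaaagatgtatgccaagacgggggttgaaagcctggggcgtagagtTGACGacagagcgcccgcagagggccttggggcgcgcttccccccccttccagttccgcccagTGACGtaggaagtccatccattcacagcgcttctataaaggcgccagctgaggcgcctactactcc
Junb: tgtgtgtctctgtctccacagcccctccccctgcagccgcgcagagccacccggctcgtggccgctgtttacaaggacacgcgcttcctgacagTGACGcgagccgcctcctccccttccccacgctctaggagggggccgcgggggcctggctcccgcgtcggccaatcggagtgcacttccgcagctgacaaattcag
Btg2: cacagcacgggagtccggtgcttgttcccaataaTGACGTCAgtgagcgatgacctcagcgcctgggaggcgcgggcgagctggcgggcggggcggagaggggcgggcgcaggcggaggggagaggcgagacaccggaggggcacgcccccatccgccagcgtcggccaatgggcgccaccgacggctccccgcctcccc
Nr4a1: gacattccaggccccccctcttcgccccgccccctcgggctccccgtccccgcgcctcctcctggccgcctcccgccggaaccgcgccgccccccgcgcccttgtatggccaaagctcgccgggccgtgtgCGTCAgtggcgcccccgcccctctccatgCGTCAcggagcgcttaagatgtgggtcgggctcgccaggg
In Fos the cores begin 66 and 129 bases before the start, in Junb 106, and in Nr4a1 40 and 69 on the minus strand. The overlapping cores of Btg2, which form its palindrome, begin 166 and 163 bases before the start.

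Id3 and Id1, which encode inhibitors of DNA binding and are known targets of BMP signalling, were among the lowest ratios of both carriers and are in no list. Id3 (ENSMUSG00000007872, chromosome 4, 136143497 to 136145755, plus strand) had 192 CPM (164 to 222) in Cdk2-Y15S, 196 (172 to 224) in Cdk2-HET and 505 (467 to 545) in Cdk2-WT, about level in the carriers, with log2 ratios over Cdk2-WT of -1.39 (-1.65 to -1.15) and -1.36 (-1.59 to -1.14). At 3000 UMIs per cell, 62.6% of Cdk2-Y15S members and 65.3% of Cdk2-HET members had no Id3 UMI, against 31.1% of Cdk2-WT members. Id1 had 57 CPM (42.6 to 74.7) in Cdk2-Y15S, 62.5 (48.9 to 78.8) in Cdk2-HET and 137 (118 to 159) in Cdk2-WT. Id2, which was taken up after its values were seen, had 169.9 CPM in Cdk2-Y15S, 116 in Cdk2-HET and 240.1 in Cdk2-WT, past 1.5-fold against Cdk2-WT in Cdk2-HET and short of it in Cdk2-Y15S (log2 ratio -0.50). In mesenchyme the order differed: Id3 had 925 CPM in Cdk2-Y15S, 809 in Cdk2-HET and 647 in Cdk2-WT, and Id1 530.2 CPM in Cdk2-Y15S, 519 in Cdk2-HET and 393 in Cdk2-WT, so that Cdk2-WT was lowest. The other gated cells followed the members, with 196 CPM in Cdk2-Y15S, 169 in Cdk2-HET and 398 in Cdk2-WT for Id3.

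The extremes of the ranking included genes that differed in the same direction in mesenchyme. Rpl29, a ribosomal protein gene, had 426 CPM in Cdk2-Y15S, 33 in Cdk2-HET and 20.1 in Cdk2-WT members and 549.9 CPM in Cdk2-Y15S, 31.2 in Cdk2-HET and 30.9 in Cdk2-WT mesenchyme. Rpl21 had 818 CPM in Cdk2-Y15S, 44.3 in Cdk2-HET and 1040.2 in Cdk2-WT members and 939 CPM in Cdk2-Y15S, 50.3 in Cdk2-HET and 1168 in Cdk2-WT mesenchyme, far lower in Cdk2-HET in both. Ribosomal protein genes have many near-identical copies, so these counts, and those of Gm10320 and Gm10053, are uncertain. Gm10320 had 147 CPM in Cdk2-Y15S, 293 in Cdk2-HET and 160.3 in Cdk2-WT members and 157 CPM in Cdk2-Y15S, 301 in Cdk2-HET and 157 in Cdk2-WT mesenchyme. Oser1 was lowest in Cdk2-Y15S in both classes and lower by more in members (log2 ratio over Cdk2-WT -2.25) than in mesenchyme (-1.31), at 28.5 CPM in Cdk2-Y15S, 99.9 in Cdk2-HET and 138 in Cdk2-WT members and 54.7 CPM in Cdk2-Y15S, 94 in Cdk2-HET and 136 in Cdk2-WT mesenchyme. Stk25, a kinase of the Golgi, had 97.6 CPM in Cdk2-Y15S, 62.5 in Cdk2-HET and 38.7 in Cdk2-WT members and 85.6 CPM in Cdk2-Y15S, 66.8 in Cdk2-HET and 36.6 in Cdk2-WT mesenchyme. Fndc5 had 121 CPM in Cdk2-Y15S, 93.8 in Cdk2-HET and 54.2 in Cdk2-WT members, and the demethylase Kdm7a 206 CPM in Cdk2-Y15S, 130.3 in Cdk2-HET and 94.5 in Cdk2-WT. Their mesenchyme log2 ratios of 1.29 and 1.08 for Cdk2-Y15S over Cdk2-WT were near the members' 1.15 and 1.12.

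Other genes at the extremes were not past 1.5-fold in mesenchyme for the pair in which they stood out, except Gm2694. Lrrc16a, which encodes a regulator of actin capping, had 98.7 CPM (79.3 to 121) in Cdk2-Y15S, 53 (40.5 to 68.1) in Cdk2-HET and 41.8 (31.4 to 54.6) in Cdk2-WT. 1700030K09Rik had 91 CPM in Cdk2-Y15S, 59.1 in Cdk2-HET and 41.8 in Cdk2-WT, Trappc6a had 83.3 CPM in Cdk2-Y15S, 67.8 in Cdk2-HET and 41.1 in Cdk2-WT, and 4933402E13Rik had 92.1 CPM in Cdk2-Y15S, 55.6 in Cdk2-HET and 44.1 in Cdk2-WT, each highest in Cdk2-Y15S. Greb1, a coregulator of estrogen receptor, had 53.7 CPM in Cdk2-Y15S, 96.4 in Cdk2-HET and 113 in Cdk2-WT, and Pcbp4, an RNA-binding protein, had 66.9 CPM in Cdk2-Y15S, 115 in Cdk2-HET and 140.2 in Cdk2-WT, each lowest in Cdk2-Y15S. The long noncoding RNA Gm2694 had 59.2 CPM in Cdk2-Y15S, 207 in Cdk2-HET and 189 in Cdk2-WT members, and it was low in Cdk2-Y15S mesenchyme too (log2 ratio -1.87 over Cdk2-WT, from levels of at most 3.23 CPM). Csrp2, a LIM domain protein, and Mrps35, of the mitochondrial ribosome, were higher in both carriers, with 97.6 CPM in Cdk2-Y15S, 112 in Cdk2-HET and 55 in Cdk2-WT for Csrp2 and 102 CPM in Cdk2-Y15S, 116 in Cdk2-HET and 62.7 in Cdk2-WT for Mrps35. In Cdk2-Y15S, Csrp2 fell short of 1.5-fold under 1 of 12 alternatives (log2 ratio nearest to 0, 0.44) and Mrps35 under 3 of 12 alternatives (log2 ratio nearest to 0, 0.33). The noncoding RNA Gm37350 was lowest in Cdk2-HET, at 122 CPM in Cdk2-Y15S, 54.7 in Cdk2-HET and 136 in Cdk2-WT. Tesc, a calcium-binding protein and Sertoli marker, stood at the threshold in both carriers, at 363 CPM in Cdk2-Y15S, 360.5 in Cdk2-HET and 240.1 in Cdk2-WT. Its ratio over Cdk2-WT fell short of 1.5-fold in Cdk2-Y15S under 8 of 12 alternatives (log2 ratio nearest to 0, 0.53) and in Cdk2-HET under 5 of 12 alternatives (log2 ratio nearest to 0, 0.43).

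The members varied among themselves. Over the 3549 genes with a mean of at least 0.1 UMI per thinned cell in each library, the median of the lowest variance-to-mean ratio was 0.931 and the 95th percentile 1.14. Counting alone gives about 1 in a single library, and the lowest of 3 libraries tends to lie below that. The 15 most variable genes were Malat1, Actb, mt-Co1, Lgals1, Ctsl, mt-Atp6, mt-Co3, Aard, Gstm1, Fos, mt-Nd1, Tmsb4x, Cyr61, H2afz and mt-Co2. Actb, cytoplasmic actin, had a median of 3 UMIs and a 90th percentile of 16 in Cdk2-Y15S, 2 and 6 in Cdk2-HET, and 3 and 13.8 in Cdk2-WT. The 10% of cells with most Actb held 38.9% of its UMIs in Cdk2-Y15S, 39.5% in Cdk2-HET and 41.0% in Cdk2-WT, so that a minority of cells carried much of it. Lgals1, a galectin, was similarly skewed, with 38.9% in Cdk2-Y15S, 37.4% in Cdk2-HET and 43.5% in Cdk2-WT. Fos had no UMI in 73 of 155 thinned Cdk2-Y15S members, 85 of 170 in Cdk2-HET and 72 of 193 in Cdk2-WT. Ctsl had a median of 5 UMIs in Cdk2-Y15S, 7 in Cdk2-HET and 4 in Cdk2-WT, with the highest cells at 28, 34 and 31. Aard had a median of 17 UMIs in Cdk2-Y15S, 12 in Cdk2-HET and 13 in Cdk2-WT, and was missing from 0, 1 and 1 thinned cells of those libraries.

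Outside ribosomal protein and mitochondrial genes, the 15 genes with the highest mean CPM in members were Eef1a1, Malat1, H3f3b, Tpt1, Aard, Ptma, Chchd10, Gstm1, Hsp90ab1, Inha, Hspa8, Gstm2, Fth1, Cst12 and Ftl1. Gstm1, a glutathione transferase, had 2804 CPM in Cdk2-Y15S, 3574 in Cdk2-HET and 3397 in Cdk2-WT. Cst12, a cystatin, had 2200.0 CPM in Cdk2-Y15S, 2601 in Cdk2-HET and 2380.2 in Cdk2-WT. Malat1, a nuclear noncoding RNA, had 9585 CPM in Cdk2-Y15S, 6691 in Cdk2-HET and 7138 in Cdk2-WT, highest in Cdk2-Y15S but under 1.5-fold.

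Genes near Cdk2 did not stand out. Of 19 genes with at least 200 UMIs within 10 Mb of Cdk2 on chromosome 10, 0 were called in either pair. On the rest of chromosome 10, 12 of 120 (10.0%) were called in Cdk2-Y15S and 4 (3.33%) in Cdk2-HET against Cdk2-WT. Over all 2589 genes the shares called in either direction were 5.76% in Cdk2-Y15S and 2.78% in Cdk2-HET. For Cdk2-Y15S other chromosomes had shares near that of chromosome 10, with 9.39% on chromosome 2, 8.89% on chromosome 13 and 8.03% on chromosome 8. Amh lies on chromosome 10 as well and is a gene of the rule.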

How the data were processed

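Per the labels' protocols, cDNA of single cells was made by the 3-prime version 2 kit of 10x Genomics. The deposited matrix holds counts, as whole UMIs, for 27998 genes in the 14422 cells of 3 libraries, and the barcode suffix gives the library. The submitters' processing notes name mm10 as the build and list Seurat and Cell Ranger 2.1.0. Cell calling and gene annotation were steps not given in the sources used here. Members and gene lists were chosen with earlier results of these data known. No further filter on cells was applied and doublets were kept, since Scrublet (scanpy 1.11.5, expected rate 6%) called 0 members; cells were scored when they had 500 genes or more and no more than 10% mitochondrial UMIs, and 46 members above that limit were not scored.

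UMIs were summed per library over members. CPM have exact 95% Poisson intervals, log2 ratios (0.5 UMI added) have conditional exact binomial intervals, and shares have exact Clopper-Pearson intervals, all for counting error only; computation used Python 3.11.15 and scipy 1.17.1. The ratio and the thinning were tested on simulated counts. Named genes are the genes of the rule, Cdk2, the 2 highest and 2 lowest ratios of each of 23 lists, list members whose role orders the text, the 12 highest and 12 lowest ratios for Cdk2-Y15S over Cdk2-WT, the 6 and 6 for Cdk2-HET, the 15 highest levels, the 15 most variable genes and the cell type markers. Positions were read from the GRCm38 annotation GENCODE M21, which holds 27645 of the 27998 identifiers. The authors' germ cell table and cluster assignment were not used.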

Additional observations from a re-analysis of the deposited data

Results flagged for a closer look

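In 3 genes a ratio past 1.5-fold in non-cycling Sertoli cells faced a ratio past 1.5-fold of opposite sign in mesenchyme of the same libraries. The difference between the cell types was not tested, since each genotype has 1 library.

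Hist1h2bc, a replication-type histone H2B gene that is also polyadenylated, had 64.7 CPM in Cdk2-Y15S, 79 in Cdk2-HET and 135 in Cdk2-WT in members. The log2 ratio was -1.05 (-1.51 to -0.63) for Cdk2-Y15S over Cdk2-WT and -0.77 (-1.15 to -0.40) for Cdk2-HET over Cdk2-WT. In mesenchyme the gene had 129.8 CPM in Cdk2-Y15S, 93.5 in Cdk2-HET and 46.9 in Cdk2-WT, and in the other gated Sertoli cells 319.6 CPM in Cdk2-Y15S, 267 in Cdk2-HET and 166 in Cdk2-WT, both highest in Cdk2-Y15S. The member ratios shrank to -0.20 and -0.023 when the Fstl3 condition was dropped.

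Id2 had a log2 ratio of -1.05 (-1.36 to -0.76) for Cdk2-HET over Cdk2-WT in members and 0.60 (0.48 to 0.72) in mesenchyme, where its levels were 176 CPM in Cdk2-Y15S, 131 in Cdk2-HET and 86.3 in Cdk2-WT.

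Hba-a1 had a log2 ratio of 5.98 for Cdk2-Y15S over Cdk2-WT in members, carried by 1 cell, and -1.80 in mesenchyme. Without the 5 cells that hold markers of other types the member ratio was -1.10, from 1 UMI in Cdk2-Y15S and 4 in Cdk2-WT.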

How the results depend on the processing

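With 1 library per genotype no library could be left out. No paired analysis was possible because each genotype has 1 library. The alternatives that dropped the Fstl3 condition, left out the 5 cells with markers of other types, or left out each gene's highest cell were chosen after seeing the data. Pairs of counts are genes higher and genes lower. Another minimum or another set of cells also changes how many genes enter the count. Such counts are therefore not shares of the 2589 genes above. With at least 50 UMIs they were 336 and 223 in Cdk2-Y15S against Cdk2-WT, 205 and 154 in Cdk2-HET against Cdk2-WT, and 298 and 250 in Cdk2-Y15S against Cdk2-HET. With at least 500 UMIs they were 11 and 17 in Cdk2-Y15S against Cdk2-WT, 9 and 9 in Cdk2-HET against Cdk2-WT, and 8 and 19 in Cdk2-Y15S against Cdk2-HET. With no minimum they were 465 and 321 in Cdk2-Y15S against Cdk2-WT, 324 and 214 in Cdk2-HET against Cdk2-WT, and 415 and 329 in Cdk2-Y15S against Cdk2-HET. At 2-fold they were 12 and 12 in Cdk2-Y15S against Cdk2-WT, 2 and 10 in Cdk2-HET against Cdk2-WT, and 8 and 9 in Cdk2-Y15S against Cdk2-HET. Rules that admit more cells gave more calls, with 293 and 161 in Cdk2-Y15S against Cdk2-WT, 92 and 64 in Cdk2-HET against Cdk2-WT, and 200 and 170 in Cdk2-Y15S against Cdk2-HET in the 1876 cells without the Fstl3 condition. Reading the rule after thinning (1185 cells) gave 238 and 137 in Cdk2-Y15S against Cdk2-WT, 85 and 50 in Cdk2-HET against Cdk2-WT, and 147 and 162 in Cdk2-Y15S against Cdk2-HET. Dropping the Fstl3 condition and reading after thinning raised the member shares to the values given with them above (32.3% in Cdk2-Y15S, 28.3% in Cdk2-HET and 31.2% in Cdk2-WT; 23.8% in Cdk2-Y15S, 19.8% in Cdk2-HET and 21.2% in Cdk2-WT). A stromal limit of 0 UMIs (498 cells) left 45 genes higher and 47 lower for Cdk2-Y15S over Cdk2-WT, with a Cdk2-Y15S member share of 14.1%. A mean over cells gave 61 genes higher in Cdk2-HET against Cdk2-WT, with 110 in Cdk2-Y15S against Cdk2-HET. Median-of-ratios scaling gave 22 higher in that pair with Cdk2-WT, as did the total without mitochondrial and ribosomal genes (22). The cause of these shifts was not tested.

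Ratios whose sign reversed belong mostly to genes near 0 or to genes carried by single cells. For Cdk2-Y15S over Cdk2-WT, Ftl1 was 0.049 with at least 6 Sertoli UMIs, 0.034 after thinning, 0.062 without the 5 cells and 0.050 without each gene's highest cell. Hba-a1 was -1.06, -2.36, -1.10 and -0.24 under the same settings. After thinning, Actb was 0.067 and Apoe 0.037. Pkm was -0.12 without the Fstl3 condition. For Cdk2-HET over Cdk2-WT, Tmsb4x was -1.62, Apoe -2.97 and Lgals1 -0.069 with a stromal limit of 0 UMIs. Ccl17 was -0.069 after thinning and -0.12 without the Fstl3 condition, and Malat1 0.020 after thinning. The cholesterol list median for Cdk2-Y15S over Cdk2-WT was 0.070 with at least 50 UMIs and 0.070 with no minimum, and the S phase list 0.038 with no minimum. Each single-gene ratio was read once under each of 12 alternatives. Of these readings, 3322 stayed within the counting interval of the ratio, 93 moved outside it and 17 reversed. Thinning to 5000 UMIs kept 12 of the 15 most variable genes.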
